A study of Mus musculus with 25 samples.

Results

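Alternative activation is the state that macrophages take on when interleukin 4 or interleukin 13 binds its receptors and the kinases below them activate the transcription factor STAT6. In mice it is read from a small set of transcripts, among them resistin-like molecule alpha (Retnla), arginase 1 (Arg1) and the chitinase-like protein Ym1 (Chil3). In adipose tissue, macrophages of lean animals are known for this state. The genes described here are 9 of the 24537 gene models in the count table, taken by symbol: the resistin-like genes Retnla and Retnlg, the chitinase-like genes Chil3 and Chil4, the ribonuclease gene Ear2, the enzymes Arg1 and Tgm2, and the receptor chains Il4ra and Il13ra1. The set was chosen with earlier results of these data known. All 9 passed the filter on low counts and were tested among 16961 genes.

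The study sequenced RNA of myeloid cells that were sorted from C57BL6 mice, 200 cells to a library, in 25 libraries. The diet was either low in fat (10%, abbreviated CD) or rich in it (45%, abbreviated HFD). White adipose tissue, titled eWAT, gave 4 macrophage populations with 2 libraries per diet. Tim4, a surface receptor for dying cells, marked pop1, which was low in MHCII, and pop2, which was high in it. Cells without Tim4 were parted by CD11c into pop3 (CD11c-, with high MHCII) and pop4 (CD11c+, also MHCII+). Monocytes sorted from blood on CD115 and Ly6C had 6 CD and 3 HFD libraries. The adipose CD libraries all carry titles with CD-CD and the replicate numbers 7 and 8, so in adipose tissue the diet cannot be told apart from the title series. The adipose HFD libraries carry the numbers 2 and 3, so each of these title numbers recurs in all 4 populations. Monocyte CD libraries carry both kinds of title (1, 2 and 3 are CD, and 6, 7 and 8 are CD-CD). Collagenase was used to free the adipose cells, together with flavopiridol, which blocks transcription, and no digestion of blood is described in the labels. Tissue, gate and handling can therefore not be told apart when adipose macrophages are set against monocytes. In these bulk samples fewer cells with a transcript and less of it per cell cannot be told apart either.

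Libraries held 3.75 to 9.34 M counts, and 3 counts were worth 0.321 to 0.799 CPM, the usual depth-scaled count. Levels below are CPM with library sizes scaled by the trimmed mean of M-values (TMM), as mean ± SD over libraries. All 6 genes of a macrophage marker list exceeded 3 counts in each of the 16 adipose libraries, but monocytes share most of them. Mertk, a macrophage receptor for dying cells, was higher in adipose libraries than in the 9 monocyte libraries (60.4 ± 49.8 against 0.29 ± 0.378 CPM), Lyz2, Cd68 and Fcgr1 were lower, and Adgre1 and Csf1r did not pass the test used below. The list summed to 1832 to 3901 CPM in adipose and 3589 to 4411 CPM in monocyte libraries. Ly6c2, the gene of the monocyte gate, averaged 499 ± 74.3 CPM in monocytes and 3.04 ± 5.81 CPM in the adipose populations. Adipose libraries also held transcripts of other cells of the tissue. A 7-gene adipocyte list summed to 231 to 732 CPM in them and 7.02 to 28.2 CPM in monocytes. Without Fabp4, which macrophages also make and which held most of that sum, and without the resistin gene Retn, the other 5 summed to 7.84 to 289.8 CPM and 0.378 to 1.76 CPM. A 6-gene stromal list summed to 31.5 to 1340 CPM against 0.363 to 3.51 CPM. The adipocyte hormone gene Adipoq averaged 47.4 ± 48.6 CPM in adipose libraries. Counts in olfactory and vomeronasal receptor genes, which myeloid cells are not known for, summed to 80.7 to 783 CPM. They were highest in 1 of the pop2 HFD libraries, and the receptor sum was used below as a covariate for background.

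Both gene pairs of the set lie side by side in the genome, and the promoters of each pair share a short motif, which is why they are printed. On mm10, Retnla (chromosome 16, 48842552 to 48844461, plus strand) and Retnlg (48872608 to 48874498) are separated by 28147 bases, and Chil3 (chromosome 3, 106147554 to 106167564, minus strand) and Chil4 (106201491 to 106219479) by 33927 bases. The sequences are the 250 bases before the RefSeq start of each gene (GRCm38.p6), in the direction of the gene: chr16:48842359-48842608 for Retnla and chr16:48872358-48872607 for Retnlg on the plus strand, chr3:106167565-106167814 for Chil3 and chr3:106219480-106219729 for Chil4 on the minus strand. Capitals mark a match to TTC and GAA set 4 bases apart, the spacing that STAT6 is known to prefer, in the resistin-like pair, and TTC and GAA set 3 bases apart, the spacing of other STAT factors, in the chitinase-like pair.
Retnla: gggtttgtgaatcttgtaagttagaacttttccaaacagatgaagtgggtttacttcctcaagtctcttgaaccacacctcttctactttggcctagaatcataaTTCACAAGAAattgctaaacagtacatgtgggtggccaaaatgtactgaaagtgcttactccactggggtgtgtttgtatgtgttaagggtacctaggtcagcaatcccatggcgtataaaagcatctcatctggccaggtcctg
Retnlg: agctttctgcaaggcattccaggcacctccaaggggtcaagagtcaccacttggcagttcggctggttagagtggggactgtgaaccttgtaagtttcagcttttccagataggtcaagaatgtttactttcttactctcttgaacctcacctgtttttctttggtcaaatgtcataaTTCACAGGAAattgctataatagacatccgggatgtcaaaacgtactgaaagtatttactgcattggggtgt
Chil3: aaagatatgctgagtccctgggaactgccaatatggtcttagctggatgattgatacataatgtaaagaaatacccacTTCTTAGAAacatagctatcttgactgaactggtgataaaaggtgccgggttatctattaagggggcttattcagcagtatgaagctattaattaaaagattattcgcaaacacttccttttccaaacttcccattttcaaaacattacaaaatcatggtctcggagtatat
Chil4: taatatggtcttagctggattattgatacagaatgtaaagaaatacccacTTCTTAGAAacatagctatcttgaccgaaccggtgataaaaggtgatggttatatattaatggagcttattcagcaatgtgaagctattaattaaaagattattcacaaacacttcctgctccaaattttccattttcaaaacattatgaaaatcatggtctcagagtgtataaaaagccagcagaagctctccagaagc
The match TTCACAAGAA began 145 bases before the Retnla start and TTCACAGGAA 72 bases before the Retnlg start. In the chitinase-like pair TTCTTAGAA began 172 bases (Chil3) and 200 bases (Chil4) before the start. Of 32851 promoters of the same length, 5.85% held the motif with 4 bases between and 7.02% the motif with 3 bases between, searched on both strands (each reads the same on both). The windows of Ear2, Il4ra and Il13ra1 held neither, and the promoters of Arg1 and Tgm2 were not used here. Aligned over 175 bases, the Retnla and Retnlg windows were 78.9% identical, and those of Chil3 and Chil4 were 91.0% identical over 221 bases. A match describes the letters in the window and not a bound site. The count table's gene model of Retnla begins inside the printed window.

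Against blood monocytes the set split by gene. Retnla and Retnlg were higher in adipose macrophages, and Chil3, Chil4 and Il13ra1 were lower, while Arg1, Il4ra and Tgm2 did not pass the test. Ear2 passed as lower, but its call rests on the scale and on single libraries, as given below. In edgeR's quasi-likelihood test over all 16961 genes (Benjamini-Hochberg adjusted p at or below 0.05), 6 of the 9 genes were called, 2 higher and 4 lower. Of all genes tested 37% were called in this comparison.

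**Figure D1:**
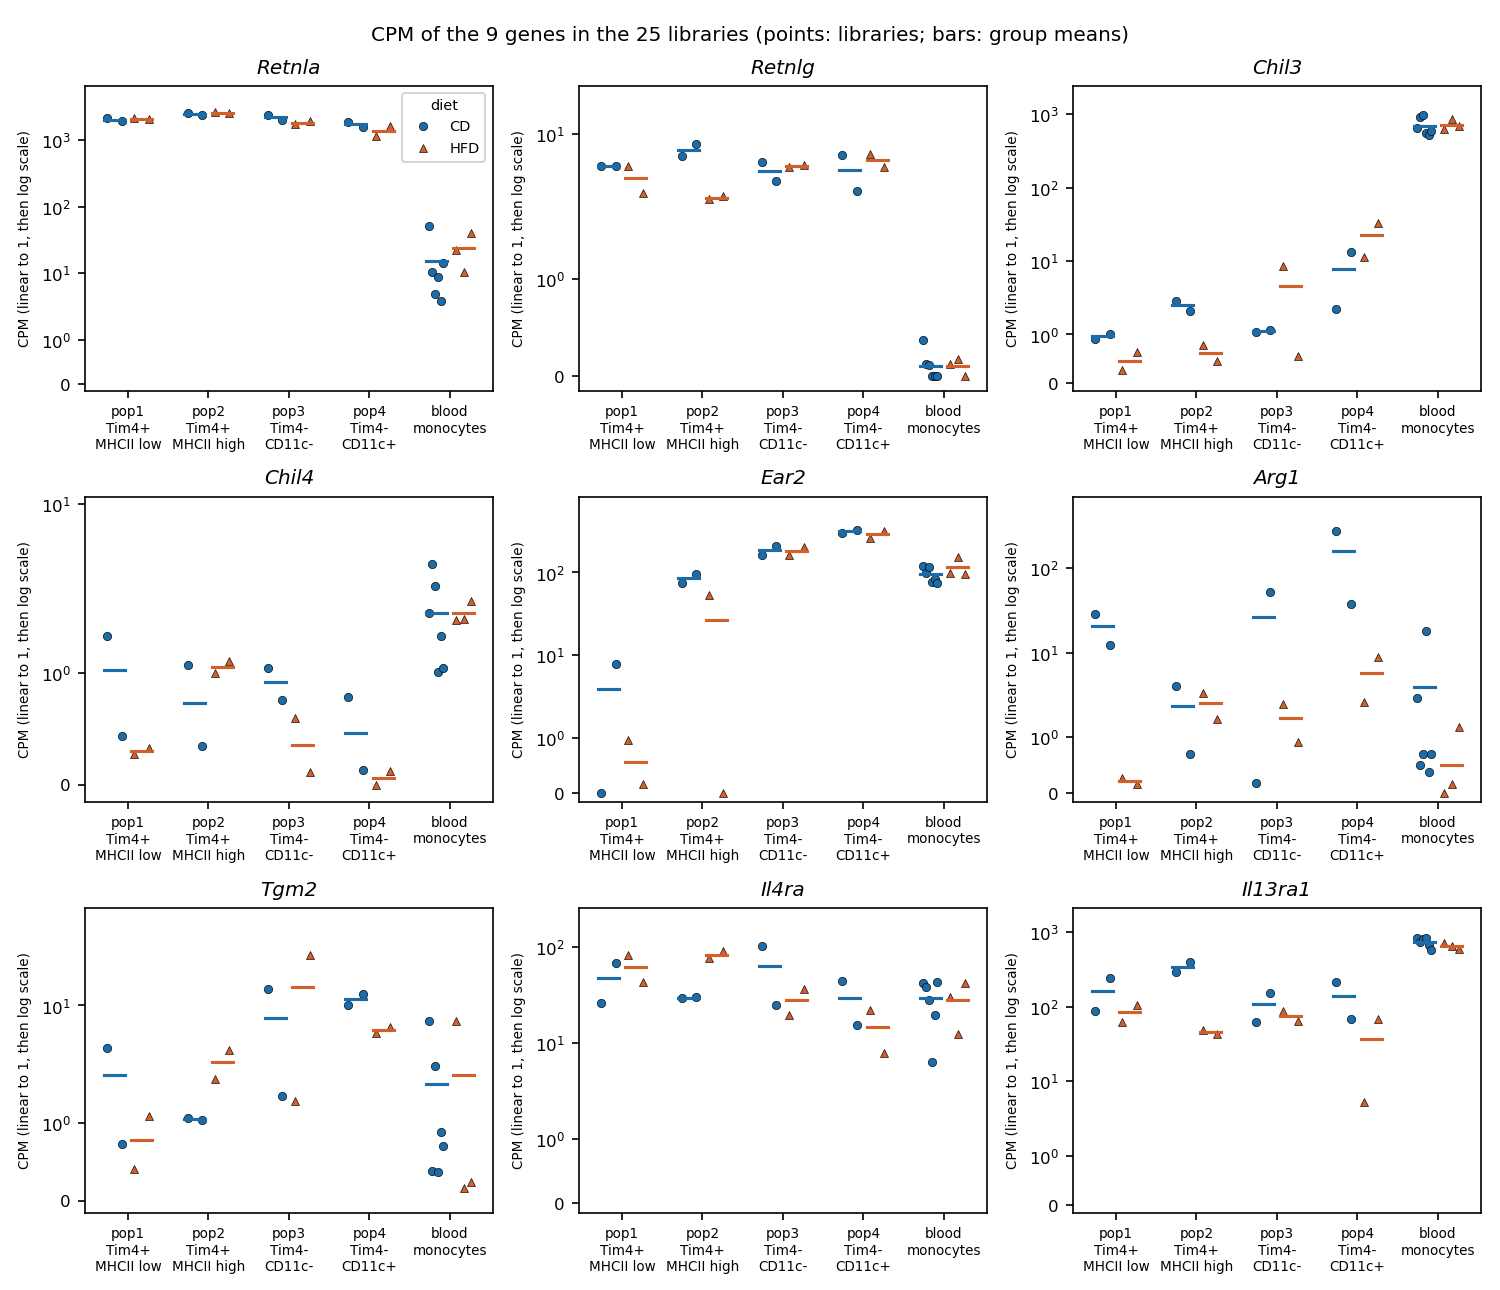
CPM (TMM-scaled, linear to 1 and then logarithmic) of the 9 genes in each of the 25 libraries, by population on the x axis and diet by colour, with bars at group means. Retnla lies at or above 1155 CPM in every adipose library and at or below 50.3 CPM in every monocyte library, Chil3 shows the opposite order, and the Ear2 means climb from pop1 to pop4.

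Retnla encodes a secreted cysteine-rich protein that is a standard marker of alternative activation. Its level was 2124 and 1924 CPM in the pop1 CD libraries, 2125 and 2039 CPM in pop1 HFD, 2573 and 2361 CPM in pop2 CD, and 2583 and 2515 CPM in pop2 HFD. It was 2382 and 2003 CPM in pop3 CD, 1734 and 1897 CPM in pop3 HFD, 1867 and 1567 CPM in pop4 CD, and 1155 and 1592 CPM in pop4 HFD. All adipose libraries were thus high, with the lowest in pop4. Monocytes had 3.8 CPM (lowest), 9.55 CPM (median) and 50.3 CPM (highest) in the 6 CD libraries and 22.5, 10.5 and 39.5 CPM in the HFD libraries, so no monocyte library came near an adipose one. The adipose mean of 2028 ± 400 CPM (n = 16) was 111 times the monocyte mean of 18.3 ± 16.3 CPM (n = 9), with a log2 difference of 6.69 (SE 0.50, adjusted p = 1.27e-09, edgeR). The call held in each of 34 alternative analyses. Adipocyte and stromal lists moved with this difference, as given above, and their part in it was not tested.

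Retnla stood out among all transcripts of the adipose libraries when counts were set against gene length. It had 15.8 to 28.2 counts per base and was the densest of 23205 gene models of at least 200 bases in 15 of 16 adipose libraries. The second gene was Tmsb4x, which encodes the actin-binding thymosin beta 4, in 14 libraries, and where Retnla led, its density was 1.14 to 2.57 times that of the second. In 1 pop4 HFD library Tmsb4x was ahead of it. By plain count Retnla ranked between 1 and 13 in the adipose libraries, at 0.114% to 0.291% of all counts. No gene exceeded 0.407% of counts in any library. Removal of duplicate reads would lower the densest genes most, and whether it was done is not given in the sources used here. Its part in the level, the ratio to monocytes, the population order and the diet comparison of Retnla was not tested.

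Among populations, the order of mean Retnla was pop2 (2508 ± 102 CPM, n = 4), pop1 (2053 ± 95.1 CPM), pop3 (2004 ± 275 CPM), pop4 (1545 ± 294 CPM) and monocytes. The pop2 libraries all lay above the pop1 libraries (lowest 2361 against highest 2125 CPM), pop1 overlapped pop3, and pop3 overlapped pop4. In the fit of all 25 libraries none of these steps passed edgeR's test. Tim4+ populations had 2281 ± 260 CPM and Tim4- populations 1775 ± 360 CPM (log2 difference 0.37, SE 0.36, adjusted p = 0.494), and adjusted p was 0.942 for pop1 against pop2 and 0.674 for pop3 against pop4. That fit takes 1 spread per gene from all groups, the monocytes included, where Retnla ran from 3.8 to 50.3 CPM. Fitted on the adipose groups alone, the Tim4+ and Tim4- difference passed (log2 difference 0.39, adjusted p = 0.0157). The other 2 steps were fitted on fewer libraries and did not pass. These were pop1 against pop2 on the groups of pop1 and pop2 alone (adjusted p = 0.520), and pop3 against pop4 on theirs (adjusted p = 0.123). With the background covariate the Tim4 difference changed sign (log2 difference -0.48, adjusted p = 0.813). Depth differed between populations too, at 3.75 to 5.86 M counts in pop2 and 5.11 to 6.63 M in pop1. It was 5.07 to 8.52 M in pop3 and 7.06 to 8.24 M in pop4. The part of depth in the order of Retnla means was not tested.

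Retnlg encodes resistin-like molecule gamma, a relative that is known from neutrophils and bone marrow. It was detected in all 16 adipose libraries, at 3.57 to 8.55 CPM, and in monocytes no library exceeded 3 counts (0 to 0.374 CPM, 4 of 9 libraries at 0). The adipose mean was 5.78 ± 1.44 CPM and the monocyte mean 0.102 ± 0.124 CPM (adjusted p = 1.19e-05, edgeR). Population means lay between 5.49 and 6.10 CPM and their libraries overlapped at each step. As a sum, neutrophil markers had the opposite order: a 10-gene neutrophil list summed to 0.741 to 79.7 CPM in adipose libraries and 101 to 364 CPM in monocytes, and S100a9 did not exceed 3 counts in any adipose library. Of its 7 tested genes 4 were lower in adipose macrophages and 1, Cxcr2, was higher (0.845 ± 0.536 against 0.225 ± 0.371 CPM). The part of neutrophil transcripts in the Retnlg values was not tested.

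Retnlg counts were a small share of Retnla counts in adipose libraries. Retnlg had 16 to 59 counts where Retnla had 9372 to 16666, which is 0.138% to 0.63% (median 0.284%). Retnlb, a member of the family that is known from the gut, had 8 to 18 counts, or 0.0597% to 0.167% of Retnla. GENCODE transcripts of Retnla and Retnlg were 84.5% identical over 587 aligned bases, with a longest shared run of 49 bases, and Retnlb shared 74.8% with a longest run of 15 bases. How reads with several matches were counted is not given in the sources used here, so low Retnlg and Retnlb counts beside a very abundant relative are uncertain, and a spill of reads was not tested.

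**Figure D2:**
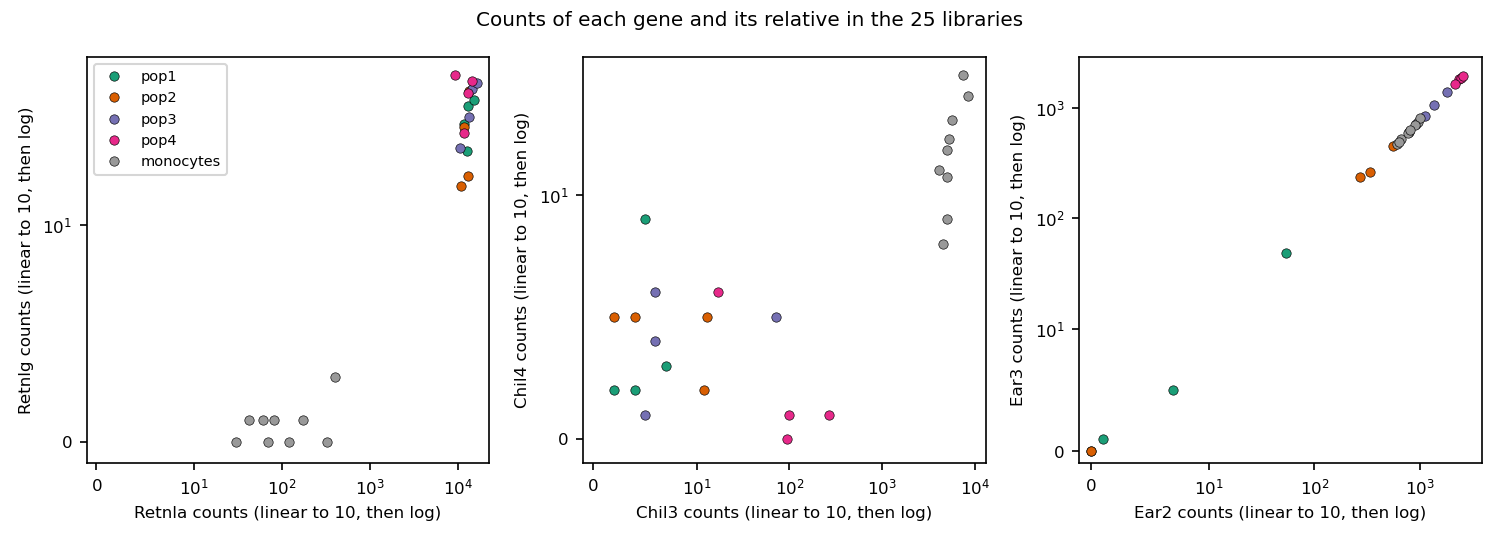
Raw counts of Retnla and Retnlg, Chil3 and Chil4, and Ear2 and Ear3 in each library (both axes linear to 10, then logarithmic), coloured by population. In adipose libraries Retnlg counts of 16 to 59 occur beside Retnla counts of 9372 to 16666. In monocytes Chil4 counts of 8 to 35 occur beside Chil3 counts of 4113 to 8337. Ear3 follows Ear2 in all libraries because both rows read the same interval.

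Chil3 encodes Ym1, a chitinase-like secreted protein that is used as a marker of alternative activation and is also made by monocytes and neutrophils. It had 521 CPM (lowest), 614 CPM (median) and 971 CPM (highest) in the monocyte CD libraries and 635, 849 and 682 CPM in the HFD libraries. In pop1 it was at 0.912 and 1.02 CPM (CD) and 0.275 and 0.65 CPM (HFD), and in pop2 at 2.87 and 2.1 CPM (CD) and 0.794 and 0.467 CPM (HFD). In pop3 it had 1.07 and 1.13 CPM (CD) and 8.52 and 0.569 CPM (HFD), and in pop4 2.22 and 13.3 CPM (CD) and 11.5 and 33.2 CPM (HFD). Monocytes were far above every adipose library, and pop4 held the highest adipose values. The monocyte mean of 709 ± 166 CPM was 141 times the adipose mean of 5.04 ± 8.58 CPM (log2 difference -8.30, SE 0.35, adjusted p = 2.70e-13, edgeR). This was the largest absolute log2 difference among the 9 genes, opposite in sign to that of Retnla.

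Within adipose tissue Chil3 was lower in Tim4+ than in Tim4- populations (1.14 ± 0.889 against 8.94 ± 11 CPM, n = 8 each), with a log2 difference of -2.55 (SE 0.48, adjusted p = 9.82e-04, edgeR). It was also lower in pop3 than in pop4 (2.82 ± 3.81 against 15.1 ± 13.1 CPM, adjusted p = 0.0103). The first call was lost with the background covariate (adjusted p = 0.0969), and the second was lost without pop4 CD replicate 8 or pop4 HFD replicate 3. Ly6c2 had 0.392, 1.35, 0.616 and 12.5 CPM in the 4 pop4 libraries, and the highest of these was the library with the highest Chil3. In the pop3 CD library with 21.9 CPM of Ly6c2, however, Chil3 was at 1.07 CPM, and the part of monocyte transcripts in the Chil3 values was not tested.

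Chil4, which encodes Ym2, was sparse. It had 1 to 4.41 CPM in monocytes (8 to 35 counts) and 0 to 1.64 CPM in adipose libraries, where 8 of 16 had 3 counts or fewer. The difference passed the test (0.616 ± 0.476 against 2.27 ± 1.08 CPM, log2 difference -2.21, SE 0.45, adjusted p = 7.38e-04, edgeR), and was lost with the background covariate (adjusted p = 0.12). In monocytes Chil4 counts were 0.178% to 0.473% of Chil3 counts. In adipose libraries, where Chil3 had 2 to 269 counts, they were 0% to 250% (median 40.7%). The transcripts were 94.4% identical over 1538 bases with a shared run of 136 bases, so a share of Chil4 reads may not be told from Chil3 by these counts.

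Ear2 encodes an eosinophil-associated ribonuclease that monocytes and some tissue macrophages also make. Its level was 0 and 7.9 CPM in pop1 CD, 0.964 and 0.162 CPM in pop1 HFD, 74 and 96.4 CPM in pop2 CD, and 54 and 0 CPM in pop2 HFD. It was 162 and 207 CPM in pop3 CD, 161 and 203 CPM in pop3 HFD, 303 and 326 CPM in pop4 CD, and 261 and 315 CPM in pop4 HFD. Monocytes had 73.7 CPM (lowest), 91.1 CPM (median) and 118 CPM (highest) on CD and 97.3, 154 and 95.9 CPM on HFD. All pop4 libraries lay above all pop3 libraries and these above all monocyte libraries, while pop2 overlapped both monocytes and pop1.

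Ear2 was lower in Tim4+ than in Tim4- populations, at 29.2 ± 39.5 against 242 ± 67.7 CPM (log2 difference -4.76, SE 0.66, adjusted p = 4.32e-05, edgeR), and this call held in each of 33 alternatives. Here 2 of the 9 genes were called, Chil3 and Ear2, against 15.1% of all genes tested. Between pop1 and pop2, Ear2 was the only gene of the 9 called (2.26 ± 3.78 against 56.1 ± 41.2 CPM, log2 difference -4.95, SE 0.97, adjusted p = 0.0175), where 0.466% of all genes were called. That call rested on 1 library: without pop2 HFD replicate 2, which leaves that group with the library at 0, the log2 difference was 0.35 (adjusted p = 0.949). It was also lost without pop1 CD replicate 7 and without either pop1 HFD library. Between pop3 and pop4, 1 of the 9 genes (Chil3) was called against 6.57% of all genes, and Ear2 was not (183 ± 25.2 against 301 ± 28.5 CPM, adjusted p = 0.591) although the libraries did not overlap. Against monocytes the log2 difference of Ear2 was -1.21 (SE 0.47, adjusted p = 0.0472) although the adipose arithmetic mean was higher (136 ± 122 against 102 ± 25.1 CPM), since the test averages logarithms and pop1 was near 0. The call was lost in 26 of 34 alternatives.

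Eosinophil markers did not follow Ear2 as a list. Prg2 and Epx, granule protein genes of eosinophils, did not exceed 0.7 and 1.87 CPM in any adipose library. Siglecf, a surface lectin of eosinophils and some macrophages, was highest in pop4 (18.5 ± 12.1 CPM against 1.29 ± 1.42 CPM in pop3), which was also the population with the most Ear2. Ccr3, of the same list, went the other way (0.328 ± 0.262 CPM in pop4 against 22.6 ± 43.6 CPM in pop3). None of the 4 tested list genes passed between pop3 and pop4 (6.57% of all genes were called), with a median log2 difference of 2.48. Between Tim4+ and Tim4- populations 1 was higher and 0 lower (15.1% of all genes). The 5-gene list summed to 2.01 to 91.1 CPM in adipose libraries and 0.345 to 13.5 CPM in monocytes, and its part in the Ear2 values was not tested.

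Ear2 shares its interval with other rows of the table. The gene models of Ear3 and Ear12 have the same coordinates (chromosome 14, 44102887 to 44103357) inside that of Ear2 (44102654 to 44103531, plus strand). In libraries with Ear2 counts, Ear3 was 71.4% to 100% of Ear2, and Ear3 and Ear12 differed by at most 4 counts. The 3 rows are therefore 1 measurement. Ear1, whose transcript is 96.8% identical to Ear2, had 0 to 7.26 CPM in adipose libraries.

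Arg1 converts arginine to ornithine and is the enzyme most used to mark alternative activation. It had 28.6 and 12.3 CPM in pop1 CD and 0.275 and 0.162 CPM in pop1 HFD, 3.97 and 0.698 CPM in pop2 CD and 3.37 and 1.63 CPM in pop2 HFD. It had 0.178 and 52.5 CPM in pop3 CD, 2.48 and 0.911 CPM in pop3 HFD, 280 and 37.4 CPM in pop4 CD, and 2.59 and 8.89 CPM in pop4 HFD. The 5 highest adipose values were all in CD libraries, but replicates of one group differed widely (0.178 and 52.5 CPM in pop3 CD). Monocytes had 0.38 CPM (lowest), 0.702 CPM (median) and 18.3 CPM (highest) on CD and 0, 0.172 and 1.33 CPM on HFD. Against monocytes Arg1 did not pass the test (27.3 ± 69.2 against 2.77 ± 5.89 CPM, log2 difference 1.99, SE 0.94, adjusted p = 0.0995, edgeR). Without monocyte CD replicate 6, the library at 18.3 CPM, it did (log2 difference 2.90, adjusted p = 0.014). Between Tim4+ and Tim4- populations the means were 6.38 ± 9.82 and 48.1 ± 95.8 CPM (adjusted p = 0.0794), and the difference passed without monocyte CD replicate 6 (adjusted p = 0.0436), without pop3 CD replicate 7 (adjusted p = 0.0479) or with the background covariate (adjusted p = 0.0420).

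Tgm2 encodes transglutaminase 2, which cross-links proteins and is induced by interleukin 4 in mouse and human macrophages. It was low, with 0.413 to 27.1 CPM in adipose libraries and 0.172 to 7.36 CPM in monocytes. Means were 11.1 ± 12.2 CPM in pop3, 8.76 ± 3.19 CPM in pop4, 2.27 ± 3.0 CPM in monocytes, 2.18 ± 1.48 CPM in pop2 and 1.66 ± 1.83 CPM in pop1, and libraries overlapped at each step. Neither the contrast with monocytes (adjusted p = 0.481) nor that of Tim4+ with Tim4- populations (1.92 ± 1.57 against 9.91 ± 8.32 CPM, log2 difference -2.52, SE 0.90, adjusted p = 0.0613, edgeR) passed. The second passed in DESeq2's Wald test (adjusted p = 0.0163) and in 4 other alternatives, among them those without monocyte HFD replicate 1 and without pop3 HFD replicate 2.

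Il13ra1 and Il4ra encode the chains of the type II receptor, which binds both interleukin 4 and interleukin 13, and Il4ra also pairs with the common gamma chain (Il2rg) in the type I receptor. Il13ra1 had 579 CPM (lowest), 780 CPM (median) and 852 CPM (highest) in the monocyte CD libraries and 716, 656 and 599.9 CPM in the HFD libraries. In adipose libraries it had 87.2 and 242 CPM in pop1 CD, 62 and 107 CPM in pop1 HFD, 298 and 396 CPM in pop2 CD, and 49.4 and 43 CPM in pop2 HFD. It had 63 and 153 CPM in pop3 CD, 87 and 64.9 CPM in pop3 HFD, 214 and 69.4 CPM in pop4 CD, and 5.3 and 68.8 CPM in pop4 HFD. Every monocyte library lay above every adipose one. The adipose mean of 126 ± 107 CPM was below the monocyte mean of 718 ± 101 CPM, with a log2 difference of -2.82 (SE 0.28, adjusted p = 1.07e-07, edgeR), and the call held in each of 34 alternatives.

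Il4ra, the chain shared by both receptor types, had 7.78 to 101 CPM in adipose libraries and 6.27 to 42.4 CPM in monocytes. Means were 56.0 ± 31.2 CPM in pop2, 54.3 ± 24.8 CPM in pop1, 45.3 ± 37.6 CPM in pop3, 28.9 ± 13.6 CPM in monocytes and 22.1 ± 15.4 CPM in pop4, and neighbours in this order overlapped. The adjusted p was 0.396 against monocytes and 0.217 between Tim4+ and Tim4- populations. Of the 3 receptor chains, Il13ra1 and Il2rg (values below) thus passed the test between blood and adipose tissue, both lower in adipose macrophages, and for Il4ra no difference was detectable with this spread.

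**Figure D3:**
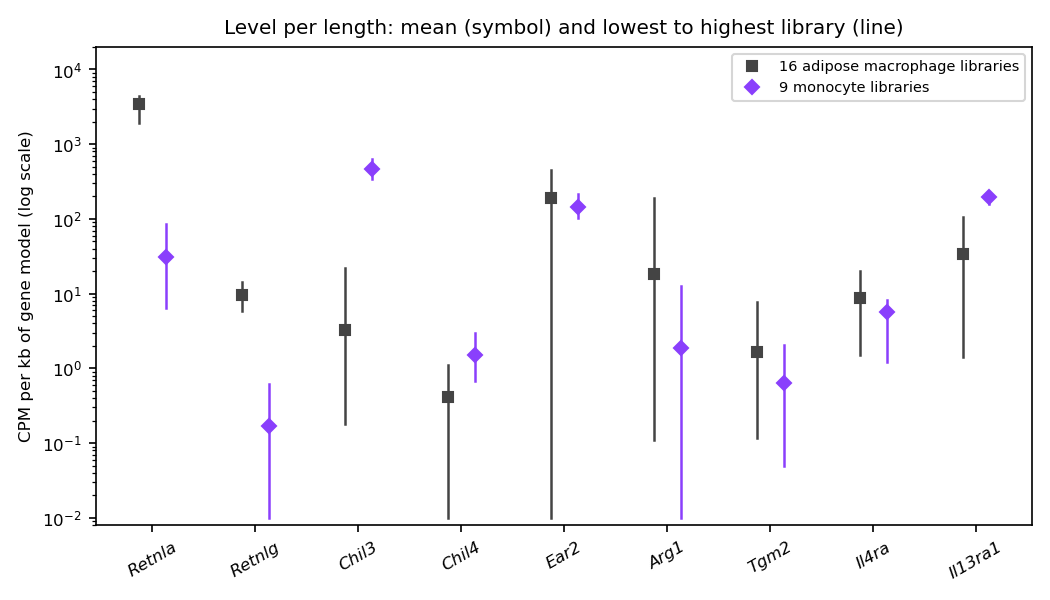
CPM per kilobase of gene model (log scale) for the 9 genes, as mean (symbol) and lowest to highest library (line) in 16 adipose and 9 monocyte libraries. Lines that end at 0.01 stand for libraries at 0, and Retnla leads in adipose macrophages (3425) while Chil3 leads in monocytes (465).

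Values per kilobase of gene model rank different genes only if reads cover each model evenly, which was not tested. By this measure Retnla led in adipose macrophages with a mean of 3425 CPM per kb. Ear2 followed with 191, Il13ra1 with 33.9, Arg1 with 18.6, Retnlg with 9.60, Il4ra with 8.74, Chil3 with 3.30, Tgm2 with 1.67 and Chil4 with 0.412 CPM per kb. In monocytes Chil3 led with 465 CPM per kb, followed by Il13ra1 with 194, Ear2 with 143, Retnla with 30.9 and Il4ra with 5.69, and the rest lay at 0.169 to 1.89 CPM per kb. The most abundant marker per length was thus Retnla in adipose macrophages and Chil3 in monocytes.

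Of 12 tested genes of interleukin 4 and 13 signalling, none was higher in adipose macrophages than in monocytes and 3 were lower, a smaller share than the 37% called among all genes. The list's median log2 difference was -0.14, against 0.19 over all genes tested. Il2rg was at 121 ± 91.5 against 414 ± 34.2 CPM (adjusted p = 6.94e-05, edgeR). Ptpn6, a phosphatase that dampens receptor signals, was at 155 ± 55.6 against 342 ± 45.3 CPM (adjusted p = 1.47e-07). Socs1, an inhibitor of Janus kinases, was at 1.88 ± 3.19 against 12.5 ± 10.5 CPM (adjusted p = 3.40e-04). Stat6 itself was at 208 ± 70.1 and 243 ± 32.6 CPM (adjusted p = 0.243) and the kinase Jak1 at 464 ± 83.6 and 448 ± 46.3 CPM (adjusted p = 0.939).

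The cytokine gene Il4 had counts in most adipose libraries. Its level was 22.4 ± 12.8 CPM in pop1, 23.9 ± 15.1 CPM in pop2 and 14.4 ± 9.86 CPM in pop3, where 1 library was at 0. In pop4, 3 of 4 libraries were at 0 and the highest had 0.261 CPM, and monocytes reached 1.69 CPM. It passed the test as higher in Tim4+ than in Tim4- populations (adjusted p = 0.0147) and in pop3 than in pop4 (adjusted p = 0.0226, edgeR). The reads do not show whether these counts come from spliced Il4 transcripts, and the cell of origin was not tested.

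Other markers of alternative activation mostly ran with Retnla. Of 23 tested genes of that list, 13 were higher in adipose macrophages than in monocytes and 3 lower (37% of all genes were called), with a median log2 difference of 2.93. Mgl2, a lectin gene, was at 371 ± 98.1 against 2.22 ± 5.46 CPM (adjusted p = 8.74e-07), the chemokine gene Ccl24 at 466 ± 180 against 2.69 ± 3.4 CPM (adjusted p = 5.52e-09) and the transcription factor gene Egr2 at 74.5 ± 33.8 against 1.31 ± 2.36 CPM (adjusted p = 1.73e-05, edgeR). Mrc1, the mannose receptor CD206, was at 1309 ± 370 against 97.7 ± 40.9 CPM. Those lower were Clec7a (416 ± 248 against 1053 ± 86.4 CPM), Flt1 (4.13 ± 9.42 against 23.4 ± 14.8 CPM) and Kdm6b (12.2 ± 10.9 against 23.2 ± 7.98 CPM), and the Kdm6b call was lost in 25 of 34 alternatives.

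Inside adipose tissue the same list was split. Between Tim4+ and Tim4- populations 4 genes were higher and 4 lower, against 15.1% of all genes called. Higher in Tim4+ cells were Clec10a (568 ± 143 against 230 ± 123 CPM), the arginine transporter gene Slc7a2 (58.9 ± 42.8 against 11.2 ± 8.37 CPM), Mrc1 (1536 ± 134 against 1082 ± 397 CPM) and the lipoxygenase gene Alox15 (81.2 ± 128 against 0.833 ± 0.623 CPM). The Alox15 counts came from pop1, where it was at 162 ± 144 CPM against 0.297 ± 0.244 CPM in pop2 (adjusted p = 0.00215), and it was the only gene of the list called between these. The log2 difference of Slc7a2 was -0.01 with the background covariate, against 2.24 without it, and its call was lost or turned in 13 of 33 alternatives. Lower in Tim4+ cells were Dcstamp, a gene of cell fusion (1.89 ± 3.59 against 156 ± 161 CPM), the chemokine gene Ccl22 (0.641 ± 0.387 against 13.2 ± 18.4 CPM), Il1rn (41.2 ± 40.5 against 331 ± 273 CPM) and Clec7a. Ccl22 lost its call in 25 of 33 alternatives.

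Markers of large peritoneal macrophages, a list to which Alox15 belongs, moved with it. In pop1 against pop2, 4 of the 7 were higher: besides Alox15 these were Prg4 (427 ± 303 against 73.8 ± 18.1 CPM), F5 (133 ± 125 against 1.72 ± 0.533 CPM) and Selp (57.1 ± 55.9 against 0.863 ± 0.755 CPM). The defining factor gene Gata6 was at 23.5 ± 27.0 against 0.836 ± 0.295 CPM and did not pass (adjusted p = 0.647, edgeR). Without Alox15 the list summed to 1206 and 1499 CPM in the pop1 CD libraries, 151 and 328 CPM in pop1 HFD and 78.2 to 128 CPM in pop2. Between Tim4+ and Tim4- populations 5 of the 7 were higher and 1 lower. The part of such cells in the pop1 values was not tested.

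Between pop3 and pop4, 2 genes of the alternative activation list were higher in pop3 and 4 were lower, against 6.57% of all genes called. Clec10a was at 340 ± 40.0 against 121 ± 37.4 CPM and Mrc1 at 1446 ± 101 against 719 ± 77.4 CPM. Ccl17, a chemokine gene like Ccl22, was at 0.191 ± 0.202 CPM in pop3 and 82.4 ± 33.7 CPM in pop4 (adjusted p = 0.00416), and Ccl22, Dcstamp (21.5 ± 36.9 against 290 ± 106 CPM) and Il1rn moved the same way. The Dcstamp call was lost in 12 of 31 alternatives and the Mrc1 call in 9 of 32. Chil3 shared the direction of Ccl17, whereas Retnla did not pass the test there. Of 7 dendritic cell markers 1 was called, Flt3, also higher in pop4 (1.59 ± 0.689 against 27.8 ± 43.7 CPM), while Clec9a was at 0.737 ± 0.81 against 10.0 ± 7.62 CPM and Xcr1 at 4.80 ± 4.53 against 9.26 ± 7.28 CPM without passing. The 7 summed to 315 to 573 CPM in pop3 and 542 to 782 CPM in pop4, their median log2 difference was -1.57 against 0.17 over all genes, and their part in these differences was not tested.

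Of 9 tested genes of the Ear and ribonuclease list, 3 were higher and 2 lower in adipose macrophages than in monocytes (37% of all genes were called). Rnase2a, a close relative of Ear2, was at 167 ± 115 against 0.237 ± 0.382 CPM (adjusted p = 4.55e-09), and Ear4 and Ear14 were below 2 CPM in all libraries with equal population means. The fits of Ear4 and Ear14 were the same, so these rows count as 1 result, and the call was lost in 8 of 33 alternatives. Ear3 and Ear12, also among the tested genes, are 1 measurement as given above. Rnase2b (1.35 ± 0.877 against 21.4 ± 10.9 CPM) and Rnase6 (190 ± 95 against 477 ± 43.7 CPM) were lower. Rnase2a was higher in Tim4+ than in Tim4- populations, where Ear2 was lower (230 ± 88.5 against 105 ± 107 CPM, adjusted p = 9.99e-04), and higher in pop3 than in pop4 (201 ± 45.2 against 8.26 ± 4.79 CPM, adjusted p = 4.16e-04). Rnase4 was higher in the same contrasts (970 ± 77.8 against 377 ± 360 CPM for Tim4+ against Tim4-, and 710 ± 78.9 against 43.3 ± 20.4 CPM for pop3 against pop4). Between pop1 and pop2 neither passed, and the pop1 means were the lower ones, as for Ear2 (179 ± 85.2 against 282 ± 63.3 CPM for Rnase2a, 917 ± 30.6 against 1023 ± 76.2 CPM for Rnase4).

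Of 11 tested genes of arginine use, 3 were higher and 2 lower in adipose macrophages than in monocytes, a share near the 37% called among all genes. Slc7a2 was at 35.0 ± 38.7 against 0.265 ± 0.258 CPM, Oat, which turns ornithine towards proline and glutamate, at 197 ± 46.8 against 95.1 ± 31.0 CPM, and Nos2, the inducible nitric oxide synthase, at 1.85 ± 2.28 against 0.4 ± 0.495 CPM. The Nos2 call was lost in 21 of 34 alternatives. Asl and Ass1, which rebuild arginine from citrulline, were lower (10.5 ± 12.2 against 29.8 ± 17.8 CPM, and 0.579 ± 0.893 against 1.68 ± 1.39 CPM). Between Tim4+ and Tim4- populations Slc7a2 and Nos2 were higher and Slc7a1 lower, and the Slc7a1 call was lost in 15 of 33 alternatives.

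Both tested resistin relatives were higher in adipose macrophages: Retn, the adipocyte hormone resistin, at 32.0 ± 32.1 CPM against at most 0.121 CPM in monocytes, and Retnlb at 1.85 ± 0.727 CPM against 0.0803 ± 0.116 CPM. Retn is itself one of the 7 adipocyte markers, all of which were higher in adipose libraries, and the part of adipocyte transcripts in its level was not tested. Of 4 tested chitinase relatives, Chid1 was higher (73.5 ± 34.0 against 35.4 ± 16.9 CPM) and Chil5 lower (2.63 ± 3.96 against 11 ± 13.6 CPM). Of 6 tested transglutaminase relatives, Tgm6 was higher (0.952 ± 0.745 against 0.149 ± 0.131 CPM) and F13a1, the coagulation factor XIII subunit, lower (1050 ± 445 against 1194 ± 143 CPM). Within adipose tissue F13a1 was higher in Tim4+ than in Tim4- populations (1401 ± 89.9 against 698 ± 364 CPM, adjusted p = 2.55e-08, edgeR) and in pop3 than in pop4 (1035 ± 42.3 against 360 ± 69.7 CPM), opposite to the order of the Tgm2 means for Tim4.

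No diet difference of Retnla was detectable in these libraries. Over the 4 adipose populations it had 1955 ± 473 CPM on HFD and 2100 ± 328 CPM on CD (n = 8 each, log2 difference -0.13, SE 0.36, adjusted p = 0.891, edgeR). In pop3 both HFD libraries lay below both CD libraries, and in the other 3 populations and in monocytes the libraries of the diets overlapped. With 2 libraries per diet, such a gap in a population often arises without any difference. This holds for the genes below too, and the share of all genes with such a gap was not counted. On the adipose groups alone the adjusted p was 0.358, and with the background covariate the log2 difference was 0.37 (adjusted p = 0.761). A p above the threshold does not show that the diets were equal.

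Over the adipose populations 2 of the 9 genes were called between diets, Arg1 and Il13ra1, both lower on HFD, against 5.34% of all genes tested. Arg1 was at 2.54 ± 2.81 CPM on HFD and 52.0 ± 94.1 CPM on CD (log2 difference -3.76, SE 1.05, adjusted p = 0.0387, edgeR). The adipose libraries of each diet carry only 2 title numbers, repeated over the populations, and may not be independent. On counts summed per title number none of the 9 genes was called. Both HFD libraries lay below both CD libraries in pop1 and pop4, and they overlapped in pop2 and pop3. In pop1 the peritoneal macrophage markers were lower with it: the 7 summed to 1459 and 1816 CPM on CD and 196 and 362 CPM on HFD, with 3 called lower and a median log2 difference of -3.05 against -0.19 over all genes, and their part in the Arg1 values was not tested. The call was lost in 16 of 32 alternatives, 12 of which left out 1 adipose library, among them the one without pop3 CD replicate 8 (log2 difference -2.03, adjusted p = 0.361) and the one with the background covariate (log2 difference -1.51, adjusted p = 0.612). Within single populations Arg1 did not pass. In pop1 it was at 0.219 against 20.5 CPM (adjusted p = 0.289), with both HFD libraries at 3 counts or fewer, and in pop4 the log2 difference was -4.79 (SE 2.14, adjusted p = 0.678).

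Il13ra1 was at 60.9 ± 30.3 CPM on HFD and 190 ± 119 CPM on CD over the adipose populations (log2 difference -1.58, SE 0.35, adjusted p = 0.00919, edgeR). Its means were lower on HFD in all 4 populations, and the libraries of the diets did not overlap in pop2 and pop4. With 2 libraries per diet such a gap is weak evidence, and its share over all genes was not counted. In pop2 it was called on its own (46.2 ± 4.56 against 347 ± 69.0 CPM, log2 difference -2.91, SE 0.73, adjusted p = 0.0238), as 1 of the 9 genes against 4.19% of all genes. Macrophage markers were lower on HFD too: over the adipose populations Lyz2, Cd68 and Adgre1, 3 of the list's 6, were called, and the list summed to 1832 to 2505 CPM on HFD and 2232 to 3901 CPM on CD. In pop2 the sums were 1892 and 1929 CPM on HFD against 3402 and 3901 CPM on CD, also with 3 genes called, and their part in the Il13ra1 difference was not tested. The pop2 HFD libraries also had receptor gene sums of 551 and 783 CPM against 372 and 389 CPM in pop2 CD. Without both pop2 HFD libraries the adipose call was lost (log2 difference -1.11, adjusted p = 0.183), as it was with the background covariate (adjusted p = 0.125) and on counts summed per title number (adjusted p = 0.296). The pop2 call was lost without pop2 CD replicate 8 or either pop2 HFD library. In pop4 the log2 difference of -1.94 (SE 0.70) had an adjusted p of 0.548, and without pop4 HFD replicate 3, which leaves the library at 5.3 CPM, it was -4.73 (adjusted p = 0.0319).

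**Figure D4:**
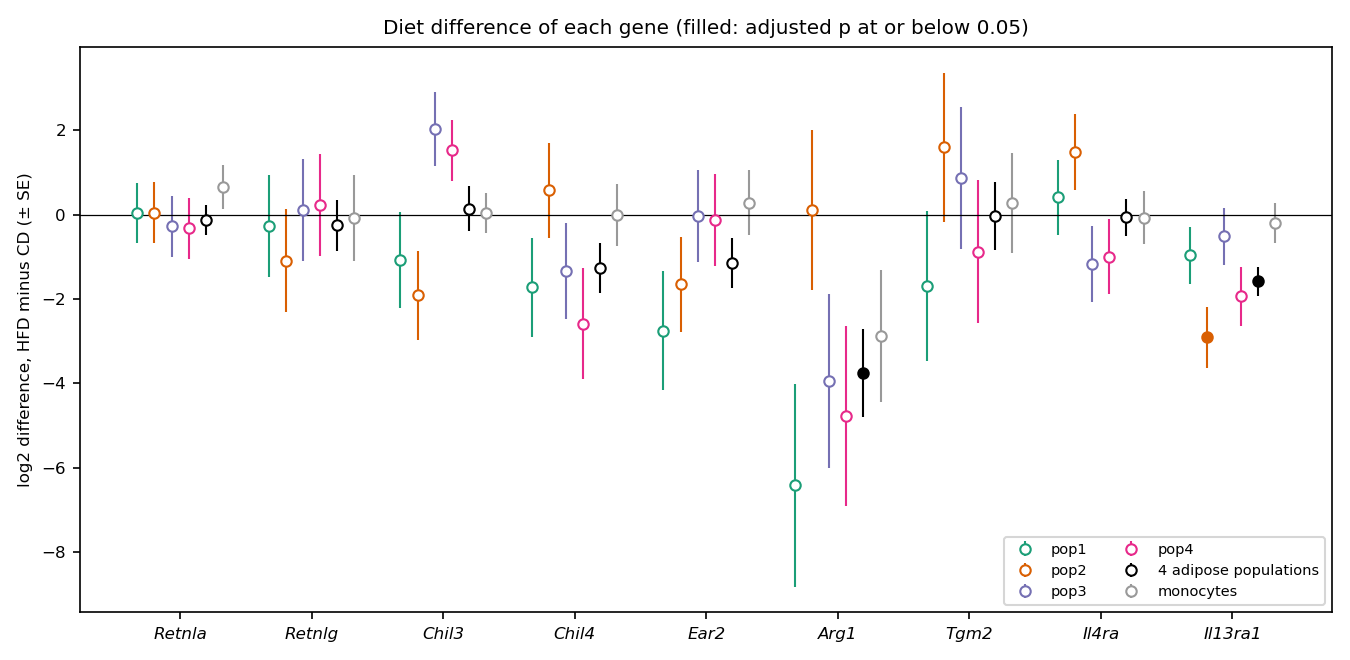
Fitted log2 differences between HFD and CD (points, with bars of 1 SE) of the 9 genes in each population, over the 4 adipose populations and in monocytes. Filled points, which passed the test, are Il13ra1 in pop2 (-2.91) and over the adipose populations (-1.58) and Arg1 over the adipose populations (-3.76), while the Retnla points lie near 0. The Arg1 point in pop1 rests on HFD libraries at 3 counts or fewer, so its size depends on the prior count.

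None of the 9 genes was called between diets in pop1 (0.436% of all genes called), pop3 (0.0943%), pop4 (0.0354%) or monocytes (0.0059%) in edgeR's test or in DESeq2's Wald test. At an unadjusted p below 0.05 there were 1 of the 9 in pop1 (Arg1), 1 in pop3 (Chil3), 3 in pop4 (Arg1, Chil3 and Il13ra1) and 0 in monocytes. The shares of all genes at that level were 11.1%, 11%, 6.99% and 6.89% in the same order, so the counts in pop1 and pop3 were near the background. Chil3 was at 22.3 CPM on HFD and 7.77 CPM on CD in pop4 (log2 difference 1.52, SE 0.72, adjusted p = 0.705) and at 4.54 against 1.10 CPM in pop3 (log2 difference 2.02, SE 0.88, adjusted p = 0.405). The pop3 value reversed to -0.91 without pop3 HFD replicate 2. In pop1 and pop2 both HFD libraries had less Chil3 than both CD libraries, all at or below 2.87 CPM.

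The diet effects of Tim4+ and Tim4- populations did not differ by the test for any of the 9 genes (0.637% of all genes were called), with 2 at an unadjusted p below 0.05 (12.7% of all genes) and 1 called by DESeq2's Wald test. These were Chil3 (log2 difference of effects -3.27, SE 0.96, adjusted p = 0.136, edgeR, but 0.0317 without pop3 HFD replicate 3 and 0.0313 without pop4 CD replicate 8) and Il4ra (2.04, SE 0.89, adjusted p = 0.345). Il4ra was at 82.7 CPM on HFD and 29.4 CPM on CD in pop2, where the libraries did not overlap. None of the 9 was called for the diet effect in adipose macrophages minus that in monocytes (0.0884% of all genes), nor by DESeq2's Wald test, and 1 had an unadjusted p below 0.05, as had 10.2% of all genes (Il13ra1, log2 difference of effects -1.39, SE 0.57, adjusted p = 0.404).

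Of the 12 tested signalling genes, 3 were higher on HFD over the adipose populations, against 5.34% of all genes called: Socs1 (3.62 ± 3.85 against 0.146 ± 0.252 CPM, adjusted p = 0.0312), Tyk2, a Janus kinase (96.7 ± 42.9 against 44.8 ± 25.6 CPM, adjusted p = 0.0365), and Ptpn6 (197 ± 31.7 against 114 ± 40.2 CPM, adjusted p = 0.00259, edgeR). The first lost its call in 17 and the second in 15 of 33 alternatives. Clec7a (299 ± 215 against 533 ± 232 CPM, adjusted p = 0.00661) and the fatty acid transporter gene Cd36 (1199 ± 154 against 1994 ± 506 CPM, adjusted p = 0.0277) were lower, as was Rnase6. The Cd36 call was lost in 12 and the Rnase6 call in 13 of 33 alternatives. The other 21 tested markers of alternative activation, among them Mrc1 (1328 ± 368 against 1290 ± 397 CPM), did not pass.

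The genes most like single members across the 25 libraries were found by Pearson's r of log2(CPM + 1), which the step between monocytes and adipose libraries dominates. For Retnla they were Fabp4, a fatty acid binding protein gene (r = 0.979), C1qa, a complement gene (0.979), and Kitl (0.979), and for Retnlg Kitl (0.978), Gfra2 (0.977) and Dab2 (0.975). Fabp4 itself was at 251 ± 51.7 CPM in adipose libraries and 13.3 ± 6.95 CPM in monocytes. For Chil3 they were Dgkg (0.976), Sorl1 (0.975) and Treml4 (0.974). Over the 16 adipose libraries alone, Retnla was most like Srrm4os (0.914), Gfra1 (0.909) and Myo16 (0.909). Libraries share depth, diet and tissue, so these values describe likeness only. Apart from the rows on its own interval, Ear2 was most like Gm21975 (0.876), and the closest genes were Ctsk for Arg1 (0.793), Ctdsp2 for Il4ra (0.736) and Cenpe for Tgm2 (0.724).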

How the data were processed

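Data are deposited raw read counts per RefSeq gene model, in 25 libraries that the labels put into 10 groups by population and diet. The authors aligned reads with STAR 2.5.3a to mm10 and counted with HOMER, per the submitters' processing notes; strand, duplicates and reads with several matches are not given in the sources used here. No library size or length scaling had been applied to the deposited counts. Counts were tested with edgeR 4.0.16 in R 4.3.3 (filterByExpr by group, TMM, robust quasi-likelihood fit of 10 group means, 15 residual degrees of freedom, 16961 genes), with Benjamini-Hochberg adjustment over all genes and a threshold of 0.05. Contrasts weigh groups equally on the log scale. The procedure was tested on simulated data for adipose macrophages against monocytes only. The other contrasts and changes in sparse genes were not simulated. Alternatives were DESeq2 1.42.0, other scalings and filters, a replicate block, a covariate of receptor gene counts, and leaving out each library. Where every library of a group compared had 3 counts or fewer, levels are printed in place of the fitted log2 value, which then depends on the prior count. The floor of 3 counts covers counting error only, since reads carry no molecular identifiers. The SE of a log2 difference includes the fitted spread between libraries.

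The 9 genes and the gene lists were chosen with earlier results of these data known. Text names all 9 genes, up to 3 genes per list and direction with the largest called log2 difference in the population contrasts, the called list genes for diet, and up to 3 of the most similar genes per member (those of Chil4 and Il13ra1 are not reported here); Stat6, Jak1, Mrc1 (as a common marker), Il4 in monocytes and values of marker genes were named after seeing them. The labels do not say whether a number in the titles marks an animal or how many animals stand behind a library, so p-values may measure technical spread. Promoters are from RefSeq (GRCm38.p6), where 7 of the 9 genes matched, and transcripts from GENCODE.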

Additional observations from a re-analysis of the deposited data

Results flagged for a closer look

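In 9 groups of 6 libraries (the monocyte CD libraries, once for each of the 9 genes), the highest or lowest library was compared with its nearest neighbour, and 3 stood apart by more than Dixon's 95% limit, which chance exceeds in about 1 in 20 groups. Monocyte CD replicate 1 was high for Retnla, at 50.3 CPM, and for Retnlg, at 0.374 CPM (3 counts). Monocyte CD replicate 6 was high for Arg1, at 18.3 CPM. Without replicate 6, Arg1 passed the test of adipose macrophages against monocytes.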

How the results depend on the processing

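Of 13 called results on the 9 genes, 5 kept direction and call in every alternative run: Retnla, Retnlg, Chil3 and Il13ra1 in adipose macrophages against monocytes, and Ear2 in Tim4+ against Tim4- populations. Over all 13, 367 of 431 alternatives kept both. Of 61 results on named list genes, 20 did so and 41 lost the call somewhere. Direction reversed with the background covariate for Arg1 against monocytes (-0.74), Retnla between Tim4+ and Tim4- (-0.48), Retnla between diets (0.37) and Slc7a2 between Tim4+ and Tim4- (-0.0081). Leaving out 1 library gave -8.84 to 0.35 for Ear2 and -8.77 to 0.23 for Ear3 and Ear12 in pop1 against pop2 (reversed without pop2 HFD replicate 2), and -0.91 to 2.94 for Chil3 between diets in pop3 (reversed without pop3 HFD replicate 2). The cause was not tested.

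Of the 9 genes, counts of calls moved as follows. Fitted on the groups compared alone, 4 were called for Tim4, and 0 for pop1 against pop2, pop3 against pop4, diet in pop2 and diet over the adipose populations. The replicate block gave 0 for pop1 against pop2 and for pop3 against pop4; no filter gave 0 for pop1 against pop2; the covariate gave 0 for pop3 against pop4 and for adipose diet. DESeq2's Wald test gave 1 for adipose diet and 1 for the Tim4 difference of diet effects, and sums per title number and leaving out both pop2 HFD libraries (added after seeing the data) gave 0 for adipose diet. Leaving out 1 library gave 5 to 7 calls for adipose macrophages against monocytes, 2 to 3 for Tim4, 0 to 1 for pop1 against pop2, pop3 against pop4, diet in pop2 and pop4 and both differences of diet effects, 1 to 2 for adipose diet and 0 otherwise.

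Over all genes the 6278 calls of adipose macrophages against monocytes became 3297 with the block and 1810 with the covariate. For Tim4 the 2554 calls became 4287 (Wald), 405 (covariate) and 1595 (no pop2 HFD). For pop1 against pop2 the 79 became 568 (Wald), 6 (groups compared), 26 (block) and 268 (no pop2 HFD), and for pop3 against pop4 the 1114 became 2675 (Wald), 323 (groups compared), 554 (block) and 138 (covariate). For diet, Wald gave 724 in pop1, 1898 in pop2, 712 in pop3, 138 in pop4, 1992 over adipose populations, 144 in monocytes, 532 for the Tim4 and 380 for the monocyte difference. The groups compared alone gave 0 in each single population and in monocytes, 300 over adipose populations and 2 for the Tim4 difference. The covariate gave 19 in pop1, 1 in pop3, 395 over adipose populations, 24 and 8 for the differences. No filter gave 36 in pop1 and 0 for the monocyte difference; size factors gave 58 and upper quartiles 47 for the Tim4 difference, and upper quartiles 2 in monocytes. Sums gave 0 and no pop2 HFD 219 over adipose populations, the block 0 in monocytes, CD titles alone 0 in monocytes and 0 for the monocyte difference, and CD-CD titles alone 2 for it. Without 1 library, calls ran from 4788 to 6296, 1773 to 2627, 55 to 215 and 379 to 1174 in the population contrasts in the same order. For diet they ran from 25 to 130, 428 to 919, 5 to 87 and 2 to 16 in pop1 to pop4, 485 to 1056 over adipose populations, 1 to 6 in monocytes, and 20 to 321 and 0 to 104 for the differences.

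Deviations of samples with the same title number hardly correlated, with r from -0.039 to 0.073. There were 28 distinct values, since both libraries of a group of 2 deviate by the same amount. With deviations from means of so few libraries, this check cannot exclude shared animals. The numbers were not taken as pairs because the labels do not say what they mark, and the fit treats libraries as independent. With DESeq2's size factors the Tim4 calls split into 1625 higher and 1074 lower (main 1232 and 1322), those of pop3 against pop4 into 882 and 298 (main 720 and 394), and the median log2 difference of all genes against monocytes was 0.35 rather than 0.19. With 2 libraries per adipose group and levels of Chil4, Retnlg and Tgm2 near 3 counts in some groups, moderate differences were not detectable.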
